A study of Mus musculus and Rattus norvegicus with 36 samples.

Results

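The genes described here encode the extracellular matrix and the enzymes that build and cut it: 49 genes, chosen by symbol. They comprise 6 fibrillar collagens, 12 basement membrane genes, 3 other collagens, 11 adhesive or matricellular glycoproteins, 5 genes of the hyaluronan and chondroitin sulfate proteoglycan net, 9 proteases or protease inhibitors and 3 genes for folding or crosslinking collagen. They were measured by poly-A RNA sequencing in 36 libraries of oligodendrocyte precursor cells (OPCs), in 12 groups of 3. A gene was tested where its normalized read count reached 10 in at least 3 libraries of a table. This kept 48 of the 49 matrix genes among 13985 genes tested in acutely isolated mouse cells, with Hapln2 left out. It kept 45 of 49 in the mouse mPFC cultures and 46 of 49 in the mouse hippocampus cultures. In the rat tables it kept 38 of the 46 that were listed in the GABA set and 42 of the 47 listed in the glutamate set.

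The acute libraries came from Pdgfralpha-CreER;Baf155-flox/flox mice (knockout), in which Cre is driven in Pdgfra-expressing cells, and from Baf155-flox/flox littermates without Cre (control). OPCs were immunopanned from medial prefrontal cortex (mPFC) or hippocampus after perfusion and lysed on the plate, and no age is given in the labels used here. The cultures were wild type: mouse OPCs of either region with 200 uM GABA for 24 h or untreated, and rat cortex OPCs in a GABA set and a glutamate set, each at 200 uM for 24 h beside its own untreated cultures. All cultures had 2 days in proliferation medium. The series asks whether BAF155, a subunit of the BAF chromatin remodelling complex, modulates how OPCs of different regions respond to neuronal input.

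The extracellular matrix of the brain differs from that of most organs. Fibrillar collagens and fibronectin are largely kept to the meninges and vessels, basement membranes of type IV collagen, laminin, nidogen and perlecan wrap the vessels, and the space between neural cells is filled by a loose net of hyaluronan, lecticans such as brevican, neurocan and aggrecan, and tenascin-R. OPCs themselves make several lecticans and tenascins, and ADAMTS and MMP proteases and their TIMP inhibitors control how the net is cut.

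Depth was 14826255 to 22128687 reads per library, and 1 read was worth 0.905 to 1.12 normalized counts. The targeted gene, Smarcc1, which encodes BAF155 (chr9:110117708-110240178, plus strand, GRCm38), was lower in knockout libraries: 2378, 2368 and 2649 in mPFC and 1631, 1569 and 1510 in hippocampus, against 3814, 3911 and 3915 in control mPFC and 4514, 4419 and 4454 in control hippocampus. Whole-gene counts do not tell the deleted exons apart from the rest. The region labels of the acute libraries did not hold together across genotypes. Of 18 forebrain regional transcription factors tested, 8 differed between hippocampus and mPFC in both genotypes, and all 8 differed in opposite directions. Among all genes, 548 of the 786 called in both genotypes, or 69.7%, had opposite directions. For Dlx2 the log2 difference, hippocampus minus mPFC, was −2.19 in knockout and 3.06 in control libraries. For this reason the knockout counts, and the fold changes within a region that the results turn on, are given for the labels as deposited and with the region labels of the controls exchanged. The average over both regions is the same either way by construction. Which genotype carries the exchanged labels, if either does, is not known. Exchanging the knockout labels instead would give the same pairings of libraries with the region names swapped. Region names given after the exchange hold only if the control labels are the wrong ones. Knockout mPFC replicate 3 and control hippocampus replicate 3 stood furthest from their own replicates, and counts without both are given. The mean chi-square per gene was at least 13.4 between the mPFC library and its replicates, against 2.48 between those, and at least 8.37 against 1.67 for the hippocampus library. The labels do not tell whether replicates came from different animals or cultures, and the p-values therefore cover the spread among the libraries alone, part of which may be technical.

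Levels per length are given as RPKM, the read count scaled to exon length and library depth, and can be compared between genes. In all 4 acute groups the proteoglycans Ncan and Bcan, the membrane-bound protease Mmp15, the matricellular glycoprotein Sparcl1 and tenascin-R (Tnr) were the 5 most abundant matrix genes. Brevican (Bcan) stood at 167 ± 22 in knockout mPFC and 172 ± 1.9 in knockout hippocampus, against 196 ± 7.4 in control mPFC and 243 ± 22 in control hippocampus (mean ± SD, n = 3 each). Neurocan (Ncan) was at 192 ± 4.8 in knockout mPFC and 197 ± 2.3 in knockout hippocampus, against 141 ± 1 in control mPFC and 158 ± 5.8 in control hippocampus. Ncan thus ranked first in both knockout groups and Bcan first in both control groups. At the other end, Thbs2, Col6a2 and Lama2 were at 0.192 or less in every acute group. All 49 are annotated as protein coding in GENCODE M21. The transcription starts of Col4a1 and Col4a2 overlap head to head on chromosome 8, and no source used here gives the strand setting of the counting.

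**Figure D1:**
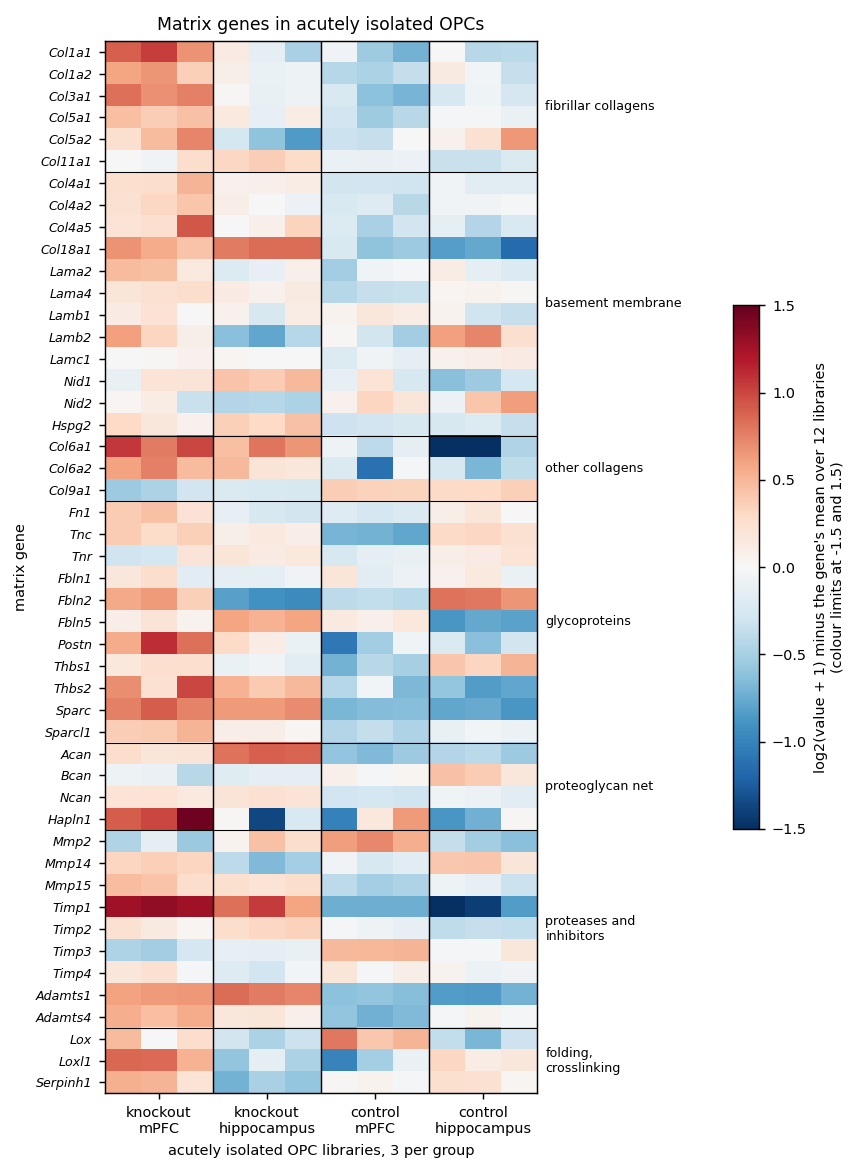
Each row is a matrix gene and each column an acute library, 3 per group. Colour is log2(value + 1) minus the gene's mean over the 12 libraries, and the 18 genes with all 6 knockout libraries above all 6 controls show as red left and blue right.

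Loss of Baf155 went with higher levels of many matrix genes in the mPFC libraries and with changes in both directions in the hippocampus libraries. In mPFC 36 of 48 tested matrix genes rose and 4 fell, where 24.1% of all tested genes rose and 23.2% fell (limma, Benjamini-Hochberg adjusted p under 0.05 over all tested genes). The median log2 fold change, knockout over control, was 0.61 over the matrix genes and −0.02 over all genes. In hippocampus 17 rose and 12 fell, against a background of 21.7% and 21%, and the medians were 0.10 and 0.00. In the average over both regions 27 rose and 7 fell, against 26.9% and 27.5% of all genes, with a median of 0.41. Without both libraries that stood apart, the counts were 36 and 5 in mPFC, 18 and 13 in hippocampus, and 27 and 8 in the average. Calls among all genes, in either direction, were then 7960, 7972 and 8666 of 13905. With all libraries they were 6622, 5964 and 7607 of 13985.

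With the control region labels exchanged, 30 matrix genes rose and 5 fell in mPFC, against 20% and 18.8% of all genes, and 29 rose and 9 fell in hippocampus, against 24.5% and 23.6%. The medians were then 0.45 and 0.38. The hippocampus count of rises therefore rests on which controls it is set against. Counting over the 4 pairings of a knockout with a control group, 14 of 48 matrix genes rose in all 4, or 29.2% against 10.4% of all genes. Col9a1 alone fell in all 4, or 2.08% against 7.89%. A further 12, or 25% against 4.09%, were called in one direction in 1 pairing and in the other direction in another. Without reference to region, all 6 knockout libraries lay above all 6 controls for 18 matrix genes, or 37.5% against 12.5% of all genes, and below them for 3, or 6.25% against 10.1%.

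**Figure D2:**
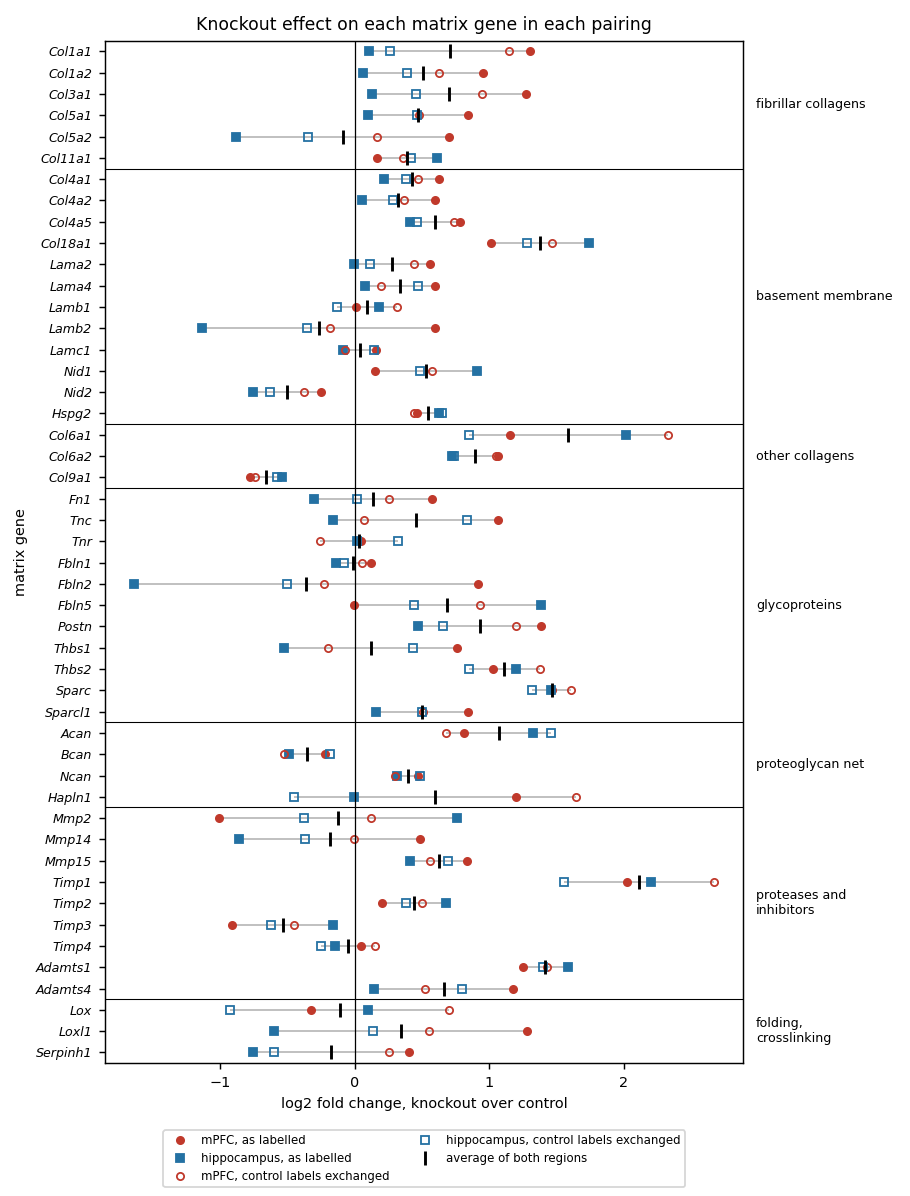
For each of 48 matrix genes, the log2 fold change of knockout over control in each region, as labelled (filled) and with control region labels exchanged (open), and the average of both regions (black bar). Sparc, Adamts1 and Timp1 sit right of 0 in every pairing and Col9a1 left of 0, while Fbln2, Mmp2, Tnc and Serpinh1 straddle it.

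The genes that rose in all 4 pairings cover most roles. Among them are the collagen genes Col11a1, Col4a1, Col18a1 and Col6a1, the basement membrane proteoglycan perlecan (Hspg2), the glycoproteins Thbs2, Sparc and Sparcl1, the lecticans Acan and Ncan, the proteases Mmp15 and Adamts1, and the inhibitors Timp1 and Timp2. Sparc encodes osteonectin, a collagen-binding matricellular protein (chr11:55394500-55423183, minus strand). Its normalized read counts were 3040, 3382 and 3022 in knockout mPFC and 2792, 2795 and 2930 in knockout hippocampus, against 1115, 1146 and 1151 in control mPFC and 1047, 1063 and 982 in control hippocampus. Every knockout library lay far above every control, with no overlap in either region. The average log2 fold change was 1.46 ± 0.04 (SE; adjusted p = 5.4e-13, limma), and it ran from 1.32 to 1.61 over the 4 pairings. Fewer cells of a type and less RNA per cell cannot be told apart in bulk libraries such as these.

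Adamts1, a secreted protease that cuts aggrecan and versican (chr16:85793827-85803113, minus strand), read 1832, 1877 and 1897 in knockout mPFC and 2161, 2069 and 2006 in knockout hippocampus, against 785, 797 and 777 in control mPFC and 673, 669 and 736 in control hippocampus. The 2 genotypes were separated by a gap larger than the spread within any group. Its average log2 fold change was 1.42 ± 0.04 (adjusted p = 5.4e-13, limma), with 1.25 to 1.58 over the pairings. Acan, which encodes aggrecan, a core protein of perineuronal nets, read 491, 465 and 470 in knockout mPFC and 720, 762 and 752 in knockout hippocampus, against 271, 259 and 280 in control mPFC and 301, 309 and 280 in control hippocampus. All knockout libraries were above all controls, and the knockout hippocampus libraries were the highest. The average was 1.07 ± 0.04 (adjusted p = 7.9e-11, limma), and the knockout effect was larger in hippocampus than in mPFC by 0.51 ± 0.09 with the labels as deposited (adjusted p = 0.001, limma) and by 0.78 ± 0.09 after the exchange of the control labels (adjusted p = 8.6e-05). With the knockout labels exchanged instead, the second difference would have the opposite sign.

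Col18a1, the basement membrane collagen that releases endostatin, read 443, 410 and 373 in knockout mPFC and 479, 497 and 499 in knockout hippocampus, against 238, 183 and 190 in control mPFC and 156, 163 and 124 in control hippocampus. No control library reached the lowest knockout library, and the average was 1.37 ± 0.08 (adjusted p = 3.1e-09, limma). The largest fold change of the matrix genes belonged to Timp1, a secreted inhibitor of MMPs, which is named here after its values were seen because its level is low. Its counts were 43.3, 45.4 and 43.6 in knockout mPFC and 31.7, 37.1 and 26.7 in knockout hippocampus, against 10.1, 10.1 and 10.1 in control mPFC and 3.95, 5.92 and 9.31 in control hippocampus. The groups did not overlap, and the average log2 fold change was 2.11 ± 0.19 (adjusted p = 2.6e-07, limma). Col6a1, a chain of the microfibrillar type VI collagen and also singled out after its values were seen, had an average of 1.59 ± 0.22 at group means of 36.2 in knockout and 12.8 in control libraries (n = 6 each).

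Smaller rises that separated all 6 knockout from all 6 control libraries were seen for Adamts4, an aggrecan-cutting protease (0.66 ± 0.05), Mmp15 (0.62 ± 0.05), the basement membrane chain Col4a5 (0.60 ± 0.12) and Hspg2 (0.54 ± 0.04). Of these, Mmp15 and Hspg2 passed in all 4 pairings, and Adamts4 and Col4a5 in 3.

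**Figure D3:**
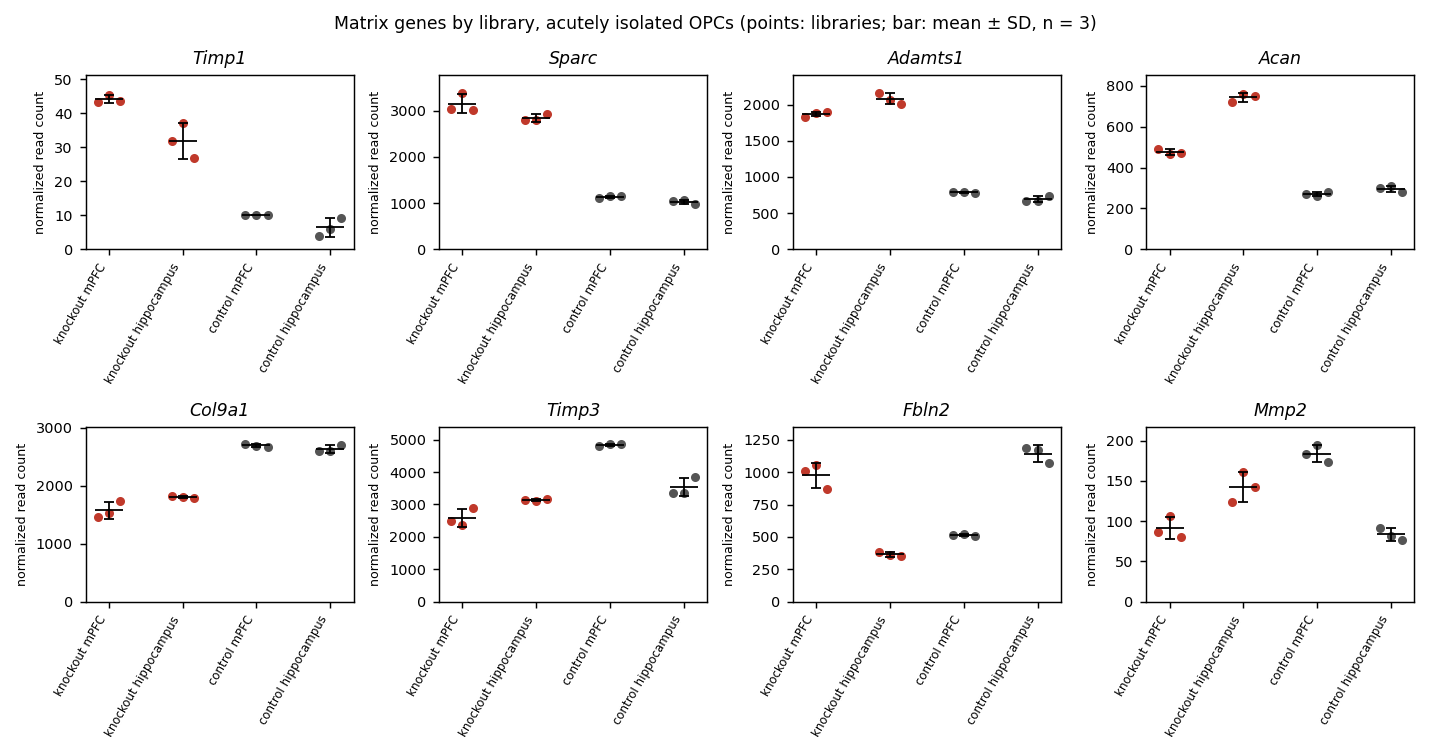
Normalized read counts of 8 matrix genes in the 12 acute libraries, with points for libraries and bars for mean ± SD (n = 3). Timp1, Sparc, Adamts1 and Acan are higher in every knockout library, Col9a1 and Timp3 lower, and Fbln2 and Mmp2 change order between the regions.

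The RefSeq start-site windows of 5 of these genes are printed, since their transcripts rose together; each runs from 250 bases before to 50 after the start in GRCm38.p6, and capitals mark matches to AP-1 (TGANTCA) or Sp1 (GGGCGG) on either strand. The windows lie at chrX:20869916-20870215 (plus strand) for Timp1, chr11:55420031-55420330 (minus strand) for Sparc, chr16:85803064-85803363 (minus strand) for Adamts1, chr7:79052976-79053275 (plus strand) for Acan and chr10:76725995-76726294 (minus strand) for Col6a1.
Timp1: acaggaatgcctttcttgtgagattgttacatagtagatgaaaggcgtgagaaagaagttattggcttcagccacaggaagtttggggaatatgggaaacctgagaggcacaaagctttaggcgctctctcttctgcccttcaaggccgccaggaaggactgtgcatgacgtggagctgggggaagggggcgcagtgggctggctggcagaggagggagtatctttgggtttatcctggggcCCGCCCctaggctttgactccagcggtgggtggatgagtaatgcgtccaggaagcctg
Sparc: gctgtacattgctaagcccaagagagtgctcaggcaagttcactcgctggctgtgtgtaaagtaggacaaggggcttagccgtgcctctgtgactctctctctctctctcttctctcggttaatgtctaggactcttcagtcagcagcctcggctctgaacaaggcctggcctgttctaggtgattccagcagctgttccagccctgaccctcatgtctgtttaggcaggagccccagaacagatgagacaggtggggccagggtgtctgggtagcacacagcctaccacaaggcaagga
Adamts1: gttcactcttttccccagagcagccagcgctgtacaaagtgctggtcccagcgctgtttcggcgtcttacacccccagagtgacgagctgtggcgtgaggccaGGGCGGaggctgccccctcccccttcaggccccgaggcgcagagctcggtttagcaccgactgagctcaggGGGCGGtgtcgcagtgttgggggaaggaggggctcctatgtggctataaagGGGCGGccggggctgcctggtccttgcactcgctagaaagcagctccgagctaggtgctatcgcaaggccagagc
Acan: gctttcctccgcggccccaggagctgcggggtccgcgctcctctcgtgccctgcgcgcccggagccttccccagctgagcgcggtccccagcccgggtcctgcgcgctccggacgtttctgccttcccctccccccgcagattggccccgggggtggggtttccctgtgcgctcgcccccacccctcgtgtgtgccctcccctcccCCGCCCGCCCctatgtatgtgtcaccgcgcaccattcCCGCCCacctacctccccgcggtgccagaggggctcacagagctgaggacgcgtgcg
Col6a1: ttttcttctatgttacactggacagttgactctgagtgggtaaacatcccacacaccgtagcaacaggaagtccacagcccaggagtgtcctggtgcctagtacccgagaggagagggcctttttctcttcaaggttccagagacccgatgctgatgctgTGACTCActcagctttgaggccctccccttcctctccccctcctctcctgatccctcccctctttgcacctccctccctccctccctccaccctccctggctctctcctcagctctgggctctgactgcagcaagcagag
Col6a1 holds the 1 AP-1 match of the matrix genes and the printed Sparc window holds none of the motifs. That Sparc window lies inside the GENCODE gene span, chr11:55394500-55423183 on the minus strand, and not at its upstream end. A RefSeq window was found for 37 of the 49 genes, 44 windows in all. The AP-1 letters occurred in 2.27% of these windows and in 7.81% of all 32851 windows, and the Egr1 letters (GCGTGGGCG) in 0 and in 0.612%. The Sp1 letters occurred in 63.6% of the matrix gene windows, 28 of 44, and in 35.7% of all windows; in Acan 2 of its 3 matches overlap. A match is a run of letters and not a shown binding site.

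In the average over both regions 7 of 48 matrix genes fell. Col9a1, the alpha-1 chain of the fibril-associated type IX collagen (chr1:24177610-24252684, plus strand), read 1457, 1525 and 1743 in knockout mPFC and 1825, 1806 and 1792 in knockout hippocampus, against 2729, 2692 and 2673 in control mPFC and 2593, 2596 and 2709 in control hippocampus. Each knockout library was below each control, and the average fell by 0.66 on the log2 scale (SE 0.04, adjusted p = 4.3e-09, limma). Timp3, an inhibitor of MMPs and ADAMTS proteases that is bound to the matrix, read 2484, 2379 and 2881 in knockout mPFC and 3147, 3119 and 3164 in knockout hippocampus, against 4805, 4856 and 4860 in control mPFC and 3364, 3367 and 3850 in control hippocampus. The separation was wide in mPFC and narrow in hippocampus, where it did not pass with the labels as deposited (−0.16, adjusted p = 0.058, limma). After the exchange it fell in both, at −0.45 in mPFC and −0.62 in hippocampus. The average was −0.54 ± 0.05. Timp1 and Timp2 were thus higher, and Timp3 lower, in all 6 knockout libraries than in all 6 controls, while Timp4 did not pass in the average (−0.05).

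Bcan read 14892, 14637 and 11754 in knockout mPFC and 13862, 14118 and 14183 in knockout hippocampus, against 16541, 15370 and 15980 in control mPFC and 21199, 20484 and 17674 in control hippocampus. All knockout libraries lay below all controls, but in mPFC only just, apart from knockout replicate 3. The log2 fold change was −0.22 ± 0.08 in mPFC and −0.49 ± 0.08 in hippocampus with the labels as deposited. After the exchange it was −0.53 in mPFC and −0.18 in hippocampus, where the call was lost (adjusted p = 0.073, limma). With the labels as deposited, the mPFC call was lost without knockout mPFC replicate 3 (−0.11, adjusted p = 0.12, limma) and without control mPFC replicate 1 (−0.20, adjusted p = 0.11) or replicate 3 (−0.22, adjusted p = 0.078). Acan and Ncan were thus higher and Bcan lower in all knockout libraries than in all controls. Versican (Vcan), a lectican outside the 49 genes, fell in the average (−0.23 ± 0.05), at 4953 ± 461 in knockout and 5799 ± 313 in control libraries (SD, n = 6 each). Of the link proteins that fasten lecticans to hyaluronan, Hapln1 rose in mPFC (1.20 ± 0.43, adjusted p = 0.034, and 1.64 after the exchange) at group means of 34.9 in knockout and 16.1 in control libraries, and Hapln2 stayed under the filter. In hippocampus Hapln1 was not called with the labels as deposited or after the exchange (−0.46, adjusted p = 0.41, limma).

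The 6 fibrillar collagen genes, which encode the tensile fibrils of connective tissue, all rose in mPFC, with a median log2 fold change of 0.90. In hippocampus 1 rose and 1 fell, with a median of 0.10. With the control labels exchanged, 5 rose and none fell in mPFC, and 4 rose and none fell in hippocampus, with medians of 0.55 and 0.40. Of all tested genes 24.1% rose and 23.2% fell in mPFC, and 21.7% and 21% in hippocampus. After the exchange these shares were 20% and 18.8% in mPFC, and 24.5% and 23.6% in hippocampus. Col3a1 read 269, 243 and 254 in knockout mPFC and 153, 139 and 142 in knockout hippocampus, against 128, 98 and 92.8 in control mPFC and 127, 144 and 126 in control hippocampus. The knockout mPFC libraries were the highest of all, and the hippocampus groups overlapped. Col1a1 showed the same order, at 147, 161 and 126 in knockout mPFC and 85.1, 71 and 55.3 in knockout hippocampus, against 75.5, 53.6 and 47.4 in control mPFC and 78, 58.2 and 59 in control hippocampus. Its log2 fold change was 1.30 ± 0.19 in mPFC (adjusted p = 6.7e-05) and 0.11 in hippocampus (adjusted p = 0.69), and after the exchange 1.14 and 0.26 (adjusted p = 0.28 in hippocampus). Col3a1 rose in both regions after the exchange, at 0.94 in mPFC and 0.46 in hippocampus. Col1a2 rose in mPFC by 0.96 ± 0.12. Col11a1, the most abundant of the 6 per length, was the member that rose in hippocampus (0.61 ± 0.06), at 12280 ± 366 in knockout and 8046 ± 367 in control libraries, and Col5a2 the one that fell (−0.89 ± 0.19). After the exchange Col11a1 was at 0.42 and still called, and Col5a2 at −0.35 and not called (adjusted p = 0.13).

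Among the 12 basement membrane genes, 9 rose and none fell in mPFC, with a median of 0.57, and 4 rose and 2 fell in hippocampus, with a median of 0.12. With the control labels exchanged, 7 rose and none fell in mPFC, and 8 rose and 1 fell in hippocampus, with medians of 0.40 and 0.33. Of all tested genes 24.1% rose and 23.2% fell in mPFC, and 21.7% and 21% in hippocampus. After the exchange these shares were 20% and 18.8% in mPFC, and 24.5% and 23.6% in hippocampus. The chains Col4a1, Col4a2, Col4a5 and Col18a1, the laminin chains Lama2, Lama4, Lamb2 and Lamc1, and Hspg2 were those that rose in mPFC with the labels as deposited, by between 0.16 and 1.01. In hippocampus Lamb2, a laminin beta chain of vessel and synapse, fell by 1.14 on the log2 scale, while the laminin-binding linker Nid1 rose by 0.91 and its relative Nid2 fell by 0.76. After the exchange Lamb2 was at −0.35 and no longer called (adjusted p = 0.10, limma), while Nid1 rose (0.49) and Nid2 fell (−0.63). Lamb1 passed in no pairing.

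For the adhesive and matricellular glycoproteins, 8 of 11 rose and none fell in mPFC, and 4 rose and 4 fell in hippocampus. With the control labels exchanged, 6 rose and 2 fell in mPFC, and 8 rose and 1 fell in hippocampus. Of all tested genes 24.1% rose and 23.2% fell in mPFC, and 21.7% and 21% in hippocampus. After the exchange these shares were 20% and 18.8% in mPFC, and 24.5% and 23.6% in hippocampus. Fbln2 (fibulin-2, a microfibril and basement membrane protein) read 1009, 1057 and 870 in knockout mPFC and 385, 362 and 350 in knockout hippocampus, against 517, 526 and 510 in control mPFC and 1191, 1171 and 1072 in control hippocampus. It was higher in knockouts in mPFC (0.91 ± 0.07) and lower in hippocampus (−1.64 ± 0.07). Knockout mPFC libraries lay near control hippocampus libraries, and with the control labels exchanged the fold changes were −0.23 and −0.50. Tnc (tenascin-C, an anti-adhesive glycoprotein) read 4001, 3736 and 3955 in knockout mPFC and 3260, 3398 and 3296 in knockout hippocampus, against 1901, 1882 and 1796 in control mPFC and 3748, 3821 and 3596 in control hippocampus. The control mPFC libraries were the lowest, and the other 9 lay between 3260 and 4001. Its fold change of 1.07 ± 0.04 in mPFC became 0.07 after the exchange, and −0.17 ± 0.04 in hippocampus became 0.83. Fbln5, an elastic fibre protein, rose in hippocampus by 1.38 ± 0.06, and 0.44 after the exchange.

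Of the 9 proteases and inhibitors, 6 rose and 2 fell in mPFC, and 5 rose and 1 fell in hippocampus. With the control labels exchanged, 5 rose and 1 fell in mPFC, and 5 rose and 4 fell in hippocampus. Of all tested genes 24.1% rose and 23.2% fell in mPFC, and 21.7% and 21% in hippocampus. After the exchange these shares were 20% and 18.8% in mPFC, and 24.5% and 23.6% in hippocampus. Mmp2, a gelatinase, read 86.6, 107 and 80 in knockout mPFC and 123, 161 and 142 in knockout hippocampus, against 183, 195 and 173 in control mPFC and 91.8, 81.9 and 76.5 in control hippocampus. It was lower in knockouts in mPFC (−1.01 ± 0.13) and higher in hippocampus (0.76 ± 0.13), and the signs turned to 0.12 and −0.38 after the exchange. Its membrane-bound activator Mmp14 rose in mPFC (0.49 ± 0.09) and fell in hippocampus (−0.86 ± 0.09). After the exchange it was at −0.0037 in mPFC (adjusted p = 0.98) and fell by 0.37 in hippocampus. Serpinh1, the collagen chaperone HSP47, rose in mPFC (0.40 ± 0.09) and fell in hippocampus (−0.76 ± 0.09), and gave 0.25 and −0.60 after the exchange.

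The knockout effect itself differed between the regions for 30 of 48 matrix genes with the labels as deposited. It was higher in hippocampus for 10 and lower for 20, where 11.8% and 12.6% of all genes did so. After the exchange these counts were 7 and 8. Calls of this difference among all genes, in either direction, fell as well, from 3415 to 1929 of 13985. The widest differences, hippocampus minus mPFC, were −2.56 ± 0.10 for Fbln2, −1.88 ± 0.32 for the crosslinking enzyme Loxl1, 1.77 ± 0.18 for Mmp2 and −1.74 ± 0.24 for Lamb2. After the exchange these gave −0.27, −0.41, −0.50 and −0.16, and none of the 4 then passed.

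Hippocampus was also set against mPFC within each genotype. In knockouts 7 matrix genes were higher and 19 lower in hippocampus (8.14% and 6.97% of all genes), and in controls 17 were higher and 10 lower (12.2% and 11.5%). Of the 16 matrix genes that differed in both genotypes, 15 did so with opposite signs, or 93.8%, against 548 of the 786 genes called in both, or 69.7%. Lox, the collagen and elastin crosslinking enzyme, was the exception, at −0.60 in knockouts and −1.02 in controls. Fbln2 was at −1.42 in knockouts and 1.14 in controls, and Mmp2 at 0.64 in knockouts and −1.13 in controls. Without knockout hippocampus replicate 4 or 5 or knockout mPFC replicate 2, the 7 higher in knockouts became 4, 4 and 3. Without control hippocampus replicate 1 or 2 or control mPFC replicate 1, the 10 lower in controls became 6, 6 and 5.

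Genes that act with the matrix, from textbook lists, also changed in the average over both regions, where 26.9% of all tested genes rose and 27.5% fell. Of 16 integrin genes, which encode the receptors for laminin, collagen and fibronectin, 10 rose and 5 fell. Itga1 and Itga2, subunits of collagen receptors, rose by 1.74 ± 0.11 and 1.42 ± 0.13, and the laminin receptor subunit Itga7 by 1.06 ± 0.08, while Itga9, of a tenascin receptor, fell (−0.41 ± 0.06). Of 17 other receptors 6 rose and 3 fell, led by the hyaluronan receptor Cd44 at 519 in knockout and 161 in control libraries (1.68 ± 0.06) and the syndecans Sdc1 (0.94 ± 0.04) and Sdc4 (0.60 ± 0.06). Of 22 collagen processing enzymes 12 rose and 3 fell, among them the prolyl hydroxylase P3h2 (1.23 ± 0.07).

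Among 28 genes for other proteoglycans and glycosaminoglycan synthesis 14 rose and 6 fell, including Xylt1, which starts glycosaminoglycan chains (0.64 ± 0.07). Of 23 other matrix proteases and inhibitors 9 rose and 3 fell. Adamts20 (0.86 ± 0.08) and Adamts9 (0.64 ± 0.05), both ADAMTS proteases, were higher, and Mmp12, a macrophage elastase, was lower, at 63.2 in knockout and 159 in control libraries (−1.43 ± 0.09). For the TGF-beta pathway, a known inducer of collagen genes, 6 of 18 rose and 4 fell, near the 26.9% and 27.5% of all genes. Smad3, its signal transducer, rose (1.04 ± 0.05), and the feedback genes Skil (−0.47 ± 0.05) and Smad7 (−0.61 ± 0.09) fell.

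Levels of markers of other cell types also differed between the genotypes. The summed level of 19 mural and fibroblast markers was 1030 to 1121 in knockout mPFC and 1013 to 1027 in knockout hippocampus, against 772 to 781 in control mPFC and 1096 to 1141 in control hippocampus. Of the 14 tested, 4 rose and 1 fell in mPFC, with Tagln at 137 in knockout and 53.8 in control libraries, and 4 rose and 4 fell in hippocampus. Of all tested genes 24.1% rose and 23.2% fell in mPFC, 21.7% and 21% in hippocampus, and 26.9% and 27.5% in the average. Slc22a6 was at 0 in both control groups. The 10 endothelial markers summed to 178 to 192 in knockout mPFC and 188 to 194 in knockout hippocampus, against 115 to 152 in control mPFC and 93.1 to 130 in control hippocampus, and 3 of 6 tested rose and 1 fell in the average, with Ly6c1 at 0 in control hippocampus. The 10 astrocyte markers summed to 34282 to 35624 in knockout mPFC and 27058 to 27522 in knockout hippocampus, against 23941 to 24293 in control mPFC and 24867 to 25246 in control hippocampus. In mPFC 9 of the 10 rose, where 24.1% of all genes did. The 11 OPC markers summed to 185049 to 193536 and 184665 to 187605 in the knockout groups of mPFC and hippocampus, against 200491 to 203216 and 204580 to 206290 in the controls, and none was at 0. In the average 2 OPC markers rose and 9 fell, against 26.9% and 27.5% of all genes. The 11 microglia markers summed to 737 to 790 and 453 to 486 in the knockouts, against 677 to 703 and 923 to 1003 in the controls. Of these markers 2 rose and 6 fell in the average. The part of these cell types in the collagen, basement membrane and protease results was not tested.

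In culture, 24 h of GABA or glutamate went with changes of matrix genes in both directions. The table of each culture set was normalized by itself, so levels are compared only within a set. Of the genes tested in all 4 comparisons, 36 were matrix genes. Adamts1, Col4a1, Fn1, Lama4 and Serpinh1 rose in all 4, or 13.9% against 0.722% of the 10949 genes tested in all, and Col9a1 fell in all 4, or 2.78% against 0.174%. Over the 3 GABA comparisons, Fbln2 joined those that rose, making 6 of 36, or 16.7% against 0.975%, and Col9a1 was again the 1 that fell, or 2.78% against 0.325%. The 4 comparisons share no library. The mouse mPFC part rested on single libraries: without untreated mPFC replicate 3, only 4 matrix genes rose there in place of 10. Serpinh1, Fbln2 and Tnc kept their calls, so most of Adamts1, Col4a1, Fn1 and Lama4 lost theirs in that setting.

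**Figure D4:**
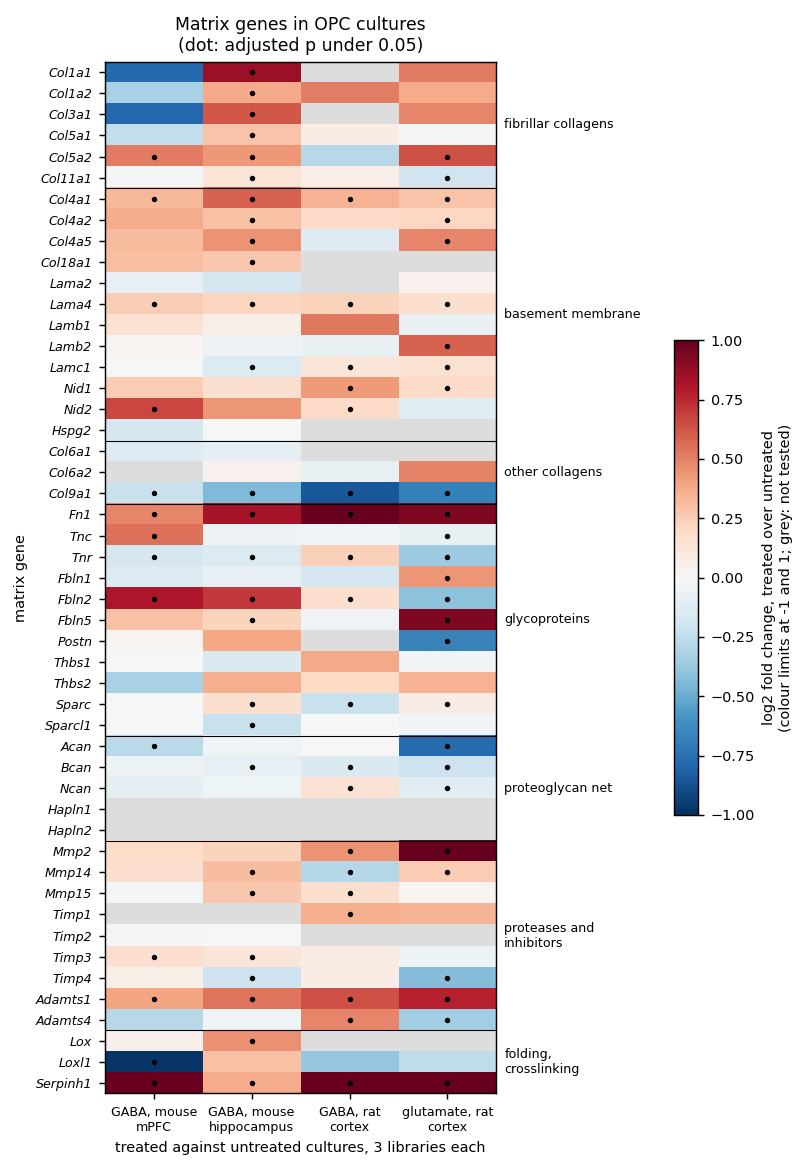
Log2 fold change of treated over untreated cultures for each matrix gene in the 4 culture comparisons, with a dot where adjusted p is under 0.05 and grey where a gene was not tested. Serpinh1 and Fn1 are red and Col9a1 blue across all 4 columns, and Acan, Fbln2 and Mmp2 differ between columns.

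Serpinh1 (chr7:99345376-99353239 in mouse, minus strand) gave the largest rise in mouse mPFC and rat GABA cultures. It read 934, 949 and 922 with GABA and 450, 465 and 477 untreated in mouse mPFC, and 448, 402 and 461 with GABA and 328, 361 and 321 untreated in mouse hippocampus. In rat it read 849, 839 and 823 with GABA and 382, 375 and 396 untreated, and 981, 1035 and 967 with glutamate and 465, 532 and 490 untreated. Treated libraries lay above untreated ones in each set. The log2 fold changes were 1.01 ± 0.05, 0.37 ± 0.07, 1.12 ± 0.05 and 1.01 ± 0.05 in that order, and the GABA effect was smaller in hippocampus than in mPFC by a tested difference of −0.64 ± 0.09 (adjusted p = 0.00021, limma).

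Fn1, which encodes the adhesive glycoprotein fibronectin, read 234, 353 and 329 with GABA and 199, 233 and 211 untreated in mPFC, where treated replicate 1 lay just above the highest untreated library. In hippocampus it read 526, 573 and 537 with GABA and 326, 292 and 303 untreated. In rat it read 269, 234 and 241 with GABA and 105, 132 and 106 untreated, and 260, 317 and 277 with glutamate and 158, 136 and 152 untreated. These 3 sets were widely separated. The log2 fold changes were 0.49 ± 0.12, 0.83 ± 0.06, 1.12 ± 0.10 and 0.93 ± 0.09. Adamts1 rose by 0.40 ± 0.08, 0.54 ± 0.08, 0.64 ± 0.15 and 0.78 ± 0.12, Col4a1 by 0.33 ± 0.08, 0.59 ± 0.06, 0.35 ± 0.04 and 0.28 ± 0.04, and Lama4, a laminin alpha chain of vessel walls, by 0.25 ± 0.06, 0.21 ± 0.05, 0.23 ± 0.04 and 0.17 ± 0.03, each in the order GABA mPFC, GABA hippocampus, GABA rat and glutamate rat.

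Col9a1 read 2881, 2605 and 2705 with GABA and 3141, 3188 and 3241 untreated in mPFC, and 3230, 3143 and 3176 with GABA and 4316, 4376 and 4297 untreated in hippocampus. In rat it read 68.5, 51 and 65.6 with GABA and 111, 113 and 108 untreated, and 147, 127 and 128 with glutamate and 198, 220 and 225 untreated. Treated libraries were below untreated ones in every set. The changes were −0.23 ± 0.04, −0.44 ± 0.03, −0.84 ± 0.13 and −0.68 ± 0.09.

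**Figure D5:**
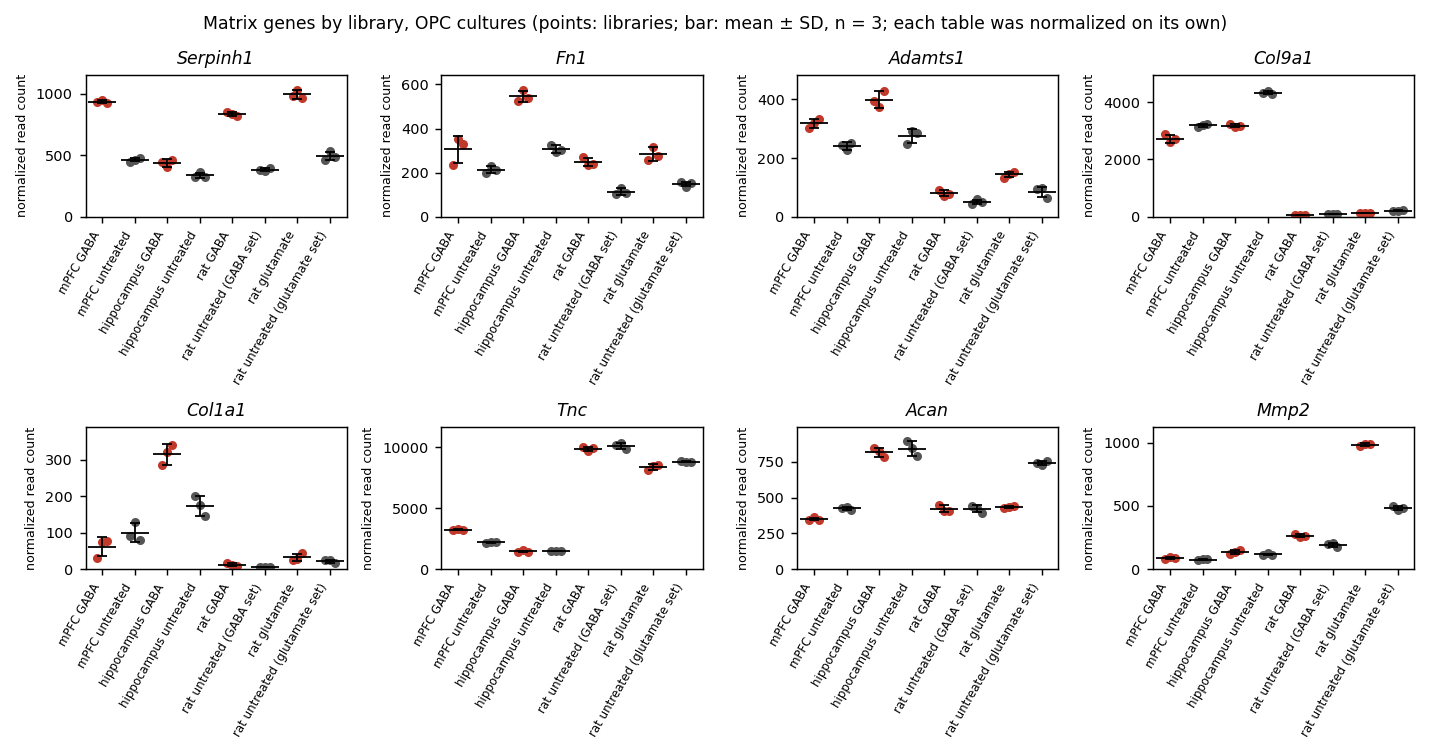
Normalized read counts of 8 matrix genes in the 24 culture libraries, treated left of untreated in each set, with points for libraries and bars for mean ± SD (n = 3). Serpinh1 is higher and Col9a1 lower in each treated group, and Col1a1, Tnc, Acan and Mmp2 separate in some sets only.

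In mouse mPFC cultures 10 of 45 tested matrix genes rose with GABA and 4 fell, where 3.18% and 3.36% of all genes did, and the median log2 fold change was 0.01. Beside Serpinh1, the largest rises with a mean over 100 were Fbln2, at 1285, 1447 and 1278 with GABA and 707, 771 and 813 untreated (0.81 ± 0.06), and Tnc, at 3212, 3256 and 3181 with GABA and 2156, 2197 and 2249 untreated (0.55 ± 0.04). Neither overlapped. The fibril collagen chain Col5a2 (0.52 ± 0.12) rose, and Tnr (−0.17 ± 0.03) and Acan (−0.27 ± 0.06) fell. The collagens Col1a1 (−0.78, adjusted p = 0.076) and Col3a1 (−0.79, adjusted p = 0.056) did not pass. GABA replicate 1 stood furthest from its replicates, and without it 12 rose and 6 fell. Other counts rested on single libraries: 5 rose without GABA replicate 3, 5 without untreated replicate 2 and 4 without untreated replicate 3, and 7 fell without GABA replicate 2, 2 without untreated replicate 1 and 1 without untreated replicate 2. The calls of Col5a2, Acan and Tnr were among those lost: Col5a2 without GABA replicate 3 (adjusted p = 0.082) or untreated replicate 2 (0.094) or 3 (0.062), Acan without GABA replicate 3 (0.055) or untreated replicate 1 (0.077) or 2 (0.095), and Tnr without untreated replicate 2 (0.053).

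GABA moved more matrix genes in mouse hippocampus cultures, where 21 of 46 rose and 6 fell against a background of 11.9% and 12.8%, with a median of 0.19. All 6 fibrillar collagen genes rose, with a median of 0.41. Col1a1 read 285, 321 and 342 with GABA and 200, 176 and 145 untreated (0.87 ± 0.10, adjusted p = 4.9e-07, limma), and Col3a1 read 221, 219 and 214 with GABA and 144, 136 and 144 untreated (0.62 ± 0.09). Neither gene's groups overlapped. Of the basement membrane genes 5 of 12 rose, among them Col4a1, Col4a2, Col4a5 and Col18a1, and 1, Lamc1, fell (−0.13 ± 0.03). Fbln2 read 836, 824 and 862 with GABA and 512, 516 and 514 untreated (0.71 ± 0.05). Falls were small apart from Col9a1, with Sparcl1 at −0.22 ± 0.03 and the inhibitor Timp4 at −0.21 ± 0.06, whose call was lost without GABA replicate 1 (adjusted p = 0.055). Without GABA replicate 2, the 21 that rose became 13.

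The GABA effect differed between the mouse cultures for 10 of the 45 genes tested in both: it was higher in hippocampus for 6 and lower for 4, where 2.8% and 2.19% of all genes did so. Col1a1 differed by 1.64 ± 0.32 (adjusted p = 0.0056, limma) and Col3a1 by 1.41 ± 0.25 (adjusted p = 0.0031). In the other direction Tnc, which rose in mPFC, read 1419, 1535 and 1436 with GABA and 1526, 1519 and 1497 untreated in hippocampus, where the groups overlapped, a difference of −0.60 ± 0.05 (adjusted p = 1.5e-06). The 6 became 2 when any 1 of untreated mPFC replicates 1 to 3, GABA hippocampus replicates 1 to 3 or untreated hippocampus replicate 2 or 3 was left out.

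In rat cortex cultures 15 of 38 matrix genes rose with GABA and 4 fell, against 11.9% and 11.8% of all genes, with a median of 0.13. None of the 4 fibrillar collagen genes tested passed. Adamts4 read 1586, 1521 and 1538 with GABA and 1117, 1164 and 1029 untreated (0.49 ± 0.04), and Mmp2 read 276, 253 and 261 with GABA and 198, 206 and 177 untreated (0.45 ± 0.08). Treated libraries were higher throughout for both. Nid1 (0.43 ± 0.03), Tnr (0.24 ± 0.03) and Ncan (0.15 ± 0.03) also rose, while Mmp14 (−0.28 ± 0.05), Sparc (−0.22 ± 0.03) and Bcan (−0.14 ± 0.03) fell.

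With glutamate 16 of 42 matrix genes rose and 11 fell in rat cortex cultures, against 14.1% and 14.2% of all genes, with a median of 0.11. The largest change was that of Mmp2, at 972, 989 and 992 with glutamate and 498, 464 and 487 untreated (1.03 ± 0.05, adjusted p = 7.6e-31, limma). Basement membrane genes rose in 7 of 10 cases and fell in none, with Lamb2 at 0.59 ± 0.05 and Col4a5 at 0.49 ± 0.07. The lectican genes Acan, Bcan and Ncan fell, and Vcan did not pass (−0.04, adjusted p = 0.21). Acan read 424, 433 and 445 with glutamate and 740, 725 and 758 untreated (−0.77 ± 0.05), without overlap, and Bcan (−0.20 ± 0.02) and Ncan (−0.11 ± 0.02) changed less. Tnr (−0.36 ± 0.02), Adamts4 (−0.35 ± 0.03) and Timp4 (−0.43 ± 0.07) fell too. Fbln2 read 318, 341 and 345 with glutamate and 434, 448 and 450 untreated (−0.41 ± 0.06), and 942, 920 and 966 with GABA and 868, 840 and 808 untreated (0.17 ± 0.04).

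The effect of glutamate, taken against its own untreated cultures, was set against that of GABA, taken likewise. It was higher for 7 of 38 matrix genes and lower for 10, where 10.6% and 10.8% of all genes were. Col5a2 (0.92 ± 0.14), Lamb2 (0.66 ± 0.09), Mmp2 (0.58 ± 0.09) and Mmp14 (0.53 ± 0.07) were higher under glutamate. Adamts4 (−0.84 ± 0.05), Acan (−0.78 ± 0.08), Tnr (−0.60 ± 0.03) and Fbln2 (−0.58 ± 0.07) were lower, with adjusted p of 1.2e-18, 5e-11, 4.6e-20 and 1e-08 (limma). The transmitters were applied in separate sets, so transmitter and set cannot be told apart here.

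Receptors and enzymes around the matrix moved in culture too. Ddr2, a collagen-binding receptor kinase, rose with GABA in mouse mPFC (0.63 ± 0.06) and in rat (1.15 ± 0.08), and with glutamate (0.84 ± 0.07). Integrin genes rose in 2 of 15, 4 of 16 and 6 of 11 cases under GABA in mPFC, hippocampus and rat, and in 8 of 12 under glutamate, and fell in none of these; of all genes, 3.18%, 11.9%, 11.9% and 14.1% rose in these comparisons. Itga6, a laminin receptor subunit, rose in mPFC (0.56 ± 0.04) and with glutamate (0.56 ± 0.05). The collagen galactosyltransferase Colgalt2 fell in rat with GABA (−0.32 ± 0.03) and glutamate (−0.40 ± 0.03). Tgfb2, a TGF-beta ligand, fell with GABA in mPFC (−0.31 ± 0.06) and rose in rat with GABA (0.20 ± 0.03) and glutamate (0.48 ± 0.03).

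Marker levels of other cells were summed in the cultures as well. In the rat GABA set 11 microglia markers summed to 1100 to 1177 with GABA and 464 to 517 untreated. Of the 10 tested 9 rose, where 11.9% of all genes did. With glutamate they summed to 97.6 to 106, against 57.6 to 74.4 untreated. In mouse they ran the other way, at 1767 to 1910 with GABA and 2029 to 2073 untreated in mPFC. In mouse hippocampus they summed to 834 to 910 with GABA and 1178 to 1216 untreated. In the rat GABA set 15 listed mural and fibroblast markers summed to 3452 to 3556 with GABA and 2537 to 2627 untreated, with Abcc9, Dcn and Twist1 at 0 in untreated libraries. Of the 7 tested 2 rose and 1 fell, where 11.9% and 11.8% of all genes did. They summed to 459 to 534 with GABA and 428 to 464 untreated in mouse mPFC, where Higd1b was at 0 in untreated libraries, to 433 to 462 with GABA and 428 to 470 untreated in hippocampus, and to 2269 to 2308 with glutamate and 2509 to 2626 untreated. Oligodendrocyte markers summed to 220875 to 222207 with GABA and 183017 to 188373 untreated in rat, and to 165451 to 167117 with glutamate and 207915 to 209767 untreated. In mouse mPFC they summed to 44038 to 45111 with GABA and 49635 to 50855 untreated. In mouse hippocampus the sums were 44564 to 45290 with GABA and 43008 to 44414 untreated. Astrocyte markers summed to 48795 to 49066 with glutamate and 41792 to 41986 untreated. The part of these cells in the culture results was not tested.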

How the data were processed

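The authors deposited 5 gene tables, whose unit is a signal: normalized read counts, in which each library's values are whole multiples of 1 step (100% of nonzero values, within 1e-06 of a whole number of steps, or 0.001 in the rat GABA table), so that 1 read is worth 0.905 to 1.12. HISAT, Bowtie2 and DESeq2 are the tools named per the submitters' processing notes, without version or role. Those notes name GRCm38.p6 for mouse, and no source used here names a rat build. Libraries were poly-A, read as single 50-base reads per the labels' protocols. Entries without values or symbol were left out, and identical repeats were kept once. The extraction protocol speaks of cortex where the sample labels say mPFC, and the sample labels were used.

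Values were compared as log2(value + 1) with limma-trend (limma 3.58.1, R 4.3.3), 1 fit per table over all its groups, for genes at 10 or more in at least 3 libraries. The pseudocount of 1 understates changes of low genes. P-values were adjusted by Benjamini-Hochberg over all tested genes, and a gene was called at an adjusted p under 0.05. Differences between tables used only differences taken within each table. The fit was tested on simulated data. Errors after fold changes are standard errors, and n = 3 libraries per group; with 3 against 3 an exact permutation test cannot go below 0.1. Levels per length used GENCODE M21 exon lengths. No count test was run.

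Genes given library by library are, for each knockout comparison, the 8 largest rises and 8 largest falls, and for each culture comparison the 4 largest of each, among called matrix genes whose replicates do not overlap and whose higher group mean is at least 100, though not every gene is given in full; from other lists up to 4 genes with the smallest p. The matrix genes, the lists and the tests were chosen with earlier results of these data known. The alternatives were other pseudocounts (0.1 and 10), omission of the filter, quantile normalization, rescaling by median of ratios, a fit of only a contrast's own libraries, a block for the replicate number, omission of 1 library at a time, and exchange of the control region labels. Leaving out both acute libraries that stood apart was added after seeing the data. Figures and joins were made with Python 3.11.15 and pandas 2.3.3.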

Additional observations from a re-analysis of the deposited data

Results flagged for a closer look

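The values below are differences between 2 effects on the log2 scale, each tested in limma and past an adjusted p of 0.05 over all tested genes. They are listed because an effect differed between regions or between transmitters; none was compared with a further set of samples.

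With the acute region labels as deposited, the knockout effect was higher in hippocampus than in mPFC for 10 matrix genes: Mmp2 (1.77), Fbln5 (1.39), Nid1 (0.75), Timp3 (0.75), Col18a1 (0.73), Acan (0.51), Timp2 (0.48), Col11a1 (0.44), Adamts1 (0.34) and Col9a1 (0.24). It was lower in hippocampus for 20. Among glycoproteins these were Fbln2 (−2.56), Thbs1 (−1.29), Tnc (−1.23), Fn1 (−0.88) and Sparcl1 (−0.69). Among fibrillar collagens they were Col5a2 (−1.59), Col1a1 (−1.20), Col3a1 (−1.14), Col1a2 (−0.90) and Col5a1 (−0.74). Among basement membrane genes they were Lamb2 (−1.74), Col4a2 (−0.54), Lama4 (−0.52), Col4a1 (−0.41) and Lamc1 (−0.25). The proteases were Mmp14 (−1.35), Adamts4 (−1.03) and Mmp15 (−0.43), and the collagen folding and crosslinking genes Loxl1 (−1.88) and Serpinh1 (−1.16). The call of Col9a1 was lost in 10 of the 12 settings that left out 1 library, and when the control region labels were exchanged, 13 of the 30 differences changed sign and 14 more lost their call. Of the 13, only Thbs1, Tnc, Lama4, Lamc1 and Fbln5 were called in the new direction. The 3 that remained called in the same direction were Acan, Col1a1 and Serpinh1. With the knockout labels exchanged in place of the controls, every exchanged difference would have the opposite sign, those of these 3 included.

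The GABA effect was higher in mouse hippocampus than in mouse mPFC cultures for Col1a1 (1.64), Col3a1 (1.41), Loxl1 (1.27), Col5a1 (0.53), Mmp15 (0.29) and Col11a1 (0.16). It was lower for Serpinh1 (−0.64), Tnc (−0.60), Sparcl1 (−0.23) and Col9a1 (−0.22). Over the 12 settings that left out 1 library, the call was lost in 9 for Loxl1 and for Col5a1, in 8 for Mmp15 and for Col11a1, and in 3 for Col9a1, with adjusted p of up to 0.0959.

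In rat cortex cultures the glutamate effect was higher than the GABA effect for Col5a2 (0.92), Lamb2 (0.66), Col4a5 (0.62), Fbln1 (0.62), Mmp2 (0.58), Mmp14 (0.53) and Sparc (0.30). It was lower for Adamts4 (−0.84), Acan (−0.78), Tnr (−0.60), Fbln2 (−0.58), Timp4 (−0.51), Nid2 (−0.31), Col11a1 (−0.26), Ncan (−0.25), Nid1 (−0.24) and Mmp15 (−0.14).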

How the results depend on the processing

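Pseudocounts, filter, rescaling, quantile normalization and a fit of only the libraries of a contrast left every count of matrix genes within 1.5 times its value. Exchanging the control region labels moved the rises in hippocampus knockouts to 29 (17 as labelled), the genes with a lower knockout effect in hippocampus to 8 (20 as labelled), and, in controls, the genes higher and lower in hippocampus to 10 and 17. Calls among all 13985 genes, in either direction, went from 5964 to 6733 in hippocampus knockouts. For the difference of the knockout effects they went from 3415 to 1929. The exchange reversed the sign of the knockout effect of Mmp2 in mPFC (0.12) and of Mmp2 (−0.38) and Fn1 (0.0121) in hippocampus. Of these only Mmp2 in hippocampus was then called. The exchange reversed the sign of the difference of the knockout effects for Thbs1 (0.63), Tnc (0.77), Adamts4 (0.28), Lama4 (0.28), Mmp15 (0.13), Lamc1 (0.21), Adamts1 (−0.0307), Timp2 (−0.12), Col18a1 (−0.19), Timp3 (−0.17), Nid1 (−0.0863), Fbln5 (−0.49) and Mmp2 (−0.50). Of these only Thbs1, Tnc, Lama4, Lamc1 and Fbln5 were then called. The cause was not tested. Leaving out both acute libraries that stood apart, chosen after seeing the data, kept every knockout count within 1.5 times, with 12 and 24 genes whose knockout effect was higher and lower in hippocampus. The background moved more: over all genes, the knockout effect differed between regions for 6990 of 13905, against 3415 of 13985 with all libraries.

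Leaving out 1 library at a time gave 32 to 35 rises and 3 to 4 falls in knockout mPFC, 15 to 16 and 11 to 12 in knockout hippocampus, and 27 to 28 and 5 to 8 in their average. The knockout effect was higher in hippocampus for 9 to 11 and lower for 20 to 23. Hippocampus against mPFC gave 3 to 9 and 13 to 21 in knockouts and 12 to 16 and 5 to 11 in controls. GABA gave 4 to 12 and 1 to 7 in mouse mPFC, 13 to 20 and 4 to 7 in mouse hippocampus, and 12 to 14 and 4 to 5 in rat; glutamate gave 14 to 16 and 10 to 11. The GABA effect was higher in hippocampus cultures for 2 to 9 and lower for 3 to 5, and the glutamate effect was higher than the GABA effect for 7 to 8 and lower for 10.

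Same-numbered libraries showed little shared deviation (correlations of −0.0359 to 0.118), which does not settle whether they share a preparation. With the replicate number as a block, more of all genes were called in each culture comparison, such as 4105 in place of 3685 in GABA hippocampus. With that block, GABA lowered 7 matrix genes in mouse mPFC cultures in place of 4, and the other counts were 34 and 4 in knockout mPFC, 10 rises in GABA mPFC, 21 and 6 in GABA hippocampus, 15 and 4 in GABA rat and 16 and 11 in glutamate rat. No paired analysis was run for knockout against control in hippocampus or for comparisons built on it. The sample titles, which were used, give these libraries no shared replicate number, although the column headers number both groups alike. The planned count test with edgeR was not run. Depth limits the low genes, such as Timp1, Thbs2 and Col6a1, whose group means in controls were 8.24, 11.2 and 12.8 normalized read counts, so 1 read is a large share of each value.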
